A study of Drosophila melanogaster with 36 samples.

Results

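miR-11 and miR-998 (dme-miR-11 and dme-miR-998 in the tables) are a pair of microRNAs cut from 2 hairpins inside one intron of E2f1, the gene of the activating E2F transcription factor of Drosophila. They were taken as every feature of the miRNA tables whose identifier names an arm of either hairpin, which gave 4 mature arms, miR-11-3p, miR-11-5p, miR-998-3p and miR-998-5p, of 673 features listed. The libraries hold small RNA of whole heads of female w1118 flies, 400 heads per sample, from old flies (55 days) and young flies (5 days). At each age heads were taken at 6 zeitgeber times (ZT), ZT0, ZT4, ZT8, ZT12, ZT16 and ZT20, with 3 replicates, which makes 36 libraries in 12 groups and 18 libraries per age. All flies carry the w1118 genotype, and the labels name no treatment, no light schedule and no source of the replicates, so that the p-values below measure the spread between these samples.

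A microRNA hairpin is cut into a duplex of a 5p and a 3p arm, and the arm that is loaded into an Argonaute protein represses mRNAs that pair with its seed, the bases near its 5′ end. miR-11 is known in flies for restraining the cell-death genes reaper, hid, grim and sickle, and so limits the apoptosis that E2f1 itself can induce. miR-998 is known in flies for lowering Cbl, a negative regulator of the EGF receptor, which favours survival signalling in the same cells. Both hairpins are transcribed with their host gene, and neither E2f1 mRNA nor any target mRNA was measured in these tables.

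On the BDGP6 (dm6) build both hairpins lie on chromosome arm 3R, minus strand. The mir-11 hairpin spans 21622497 to 21622571 (75 bases) and the mir-998 hairpin 21621879 to 21622021 (143 bases). Both sit in the intron 21621697 to 21622811 of E2f1 (gene 21620304 to 21660871), which is the last intron in each of the 6 annotated E2f1 transcripts. Along the transcript mir-11 comes first, and 475 bases separate it from mir-998. The mature arms are annotated at 21622542 to 21622563 (miR-11-5p), 21622504 to 21622524 (miR-11-3p), 21621977 to 21621998 (miR-998-5p) and 21621902 to 21621922 (miR-998-3p), each of 21 or 22 bases, so no arm overlaps an exon.

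**Figure D1:**
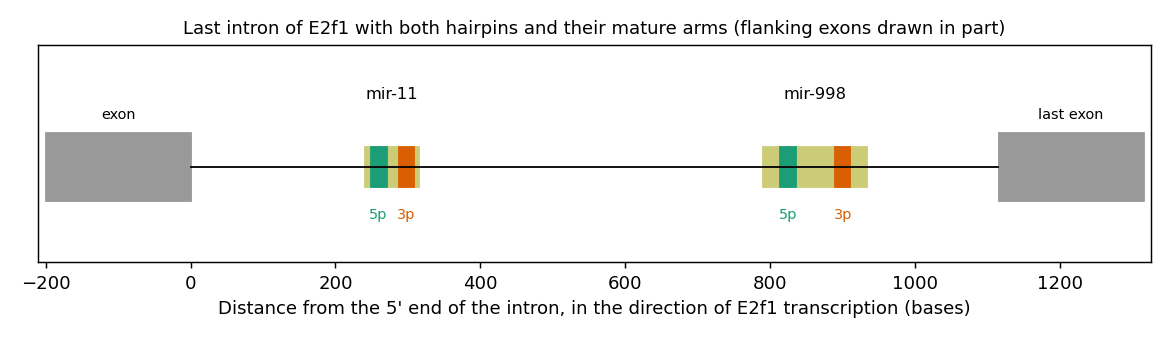
Map of the last E2f1 intron (1115 bases) in the direction of transcription, with distance from its 5′ end in bases on the horizontal axis. The mir-11 hairpin begins at base 241 of the intron and the mir-998 hairpin at base 791; green and orange blocks are the 5p and 3p arms.

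Each library holds 16.2 to 30.4 M miRNA counts. 2 libraries stood apart. In old ZT0 replicate 3, miR-184-3p took 37.1% of all miRNA counts and in young ZT0 replicate 1 it took 45.3%, against 8.39% to 18.6% in the other 34 libraries. They also held the 2 highest values of miR-998-3p, so the results that shift when they are left out are also given without them, a choice made after seeing the data. Another 3 libraries, old ZT0 replicate 1, young ZT4 replicate 3 and young ZT8 replicate 3, were rich in ovary miRNAs. The summed level of 4 ovary markers reached 660 CPM in old and 902 CPM in young heads, against medians of 14.6 and 19.7 CPM at these ages. Markers of neurons and eye, miR-124-3p, miR-210-3p and miR-7-5p, were detected throughout, at a summed level of 18333 to 33461 CPM in old and 27406 to 40757 CPM in young heads. Of these 3, miR-124-3p rose with age (log2 0.41, edgeR adjusted p = 0.000137), and miR-210-3p (-0.33, adjusted p = 4.67e-07) and miR-7-5p (-0.54, adjusted p = 0.000212) fell. The muscle markers miR-1-3p and miR-133-3p summed to 21904 to 41079 CPM in old and 31441 to 67892 CPM in young heads, and miR-133-3p fell (log2 -0.48, adjusted p = 5.77e-06) whereas miR-1-3p did not pass the test (0.094, adjusted p = 0.707). The 4 testis markers summed to 10.3 to 17.4 CPM in old and 7.71 to 13.1 CPM in young heads. The 4 of 5 early embryo markers that passed the filter summed to 23.4 to 40.4 CPM in old and 12.7 to 40.2 CPM in young heads. Of these, 3 of 4 testis and 2 of 4 embryo markers rose, where 28.7% of all features were called higher. The risen testis markers averaged 10.2 against 8.40 CPM (miR-982-5p), 0.38 against 0.14 CPM (miR-303-3p) and 0.48 against 0.29 CPM (miR-984-5p) in old against young heads. The ovary markers did not pass the test (edgeR adjusted p of 0.291 or more). Whether these tissues have a part in the results below was not tested.

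The 4 arms covered a wide range of abundance. Levels are given as CPM, the counts of an arm scaled to the size of its library after TMM normalisation. miR-11-3p was the 12th most abundant of 363 features that passed the filter on low counts, miR-11-5p the 40th, miR-998-5p the 81st and miR-998-3p the 116th, so that all 4 passed. The least abundant arm still had 375 counts in its poorest library, so counting error is small beside the spread within an age. At single hours that spread could be narrow, as for miR-998-3p in old heads at ZT20 (31.3 ± 0.367 CPM, SD, n = 3). miR-11 was read mainly from its 3p arm, which held 93.9% ± 0.817 of the counts of the hairpin in old heads and 93.7% ± 0.804 in young heads (SD, n = 18 each). miR-998 was read mainly from its 5p arm: the 3p arm held a median of 12.1% of its counts in old and 13.4% in young heads. The arms differ little in length, but adapter ligation can favour one sequence over another, so levels of different arms compare reads and not molecules.

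With age, both arms of miR-998 fell, miR-998-5p most plainly and miR-998-3p with a wide spread between libraries. Those of miR-11 fell slightly, by an amount that did not hold under every scaling. miR-998-5p averaged 231 ± 40.6 CPM in old and 421 ± 64.2 CPM in young heads (SD, n = 18 each). miR-998-3p averaged 53.7 ± 96.8 CPM in old and 74.8 ± 68.5 CPM in young heads, with medians of 31.1 CPM in old and 57.8 CPM in young heads. miR-11-3p averaged 28112 ± 5162 CPM in old and 31526 ± 3768 CPM in young heads, and miR-11-5p 1826 ± 537 CPM in old and 2137 ± 488 CPM in young heads. All 4 arms were called lower in old heads by edgeR's quasi-likelihood test with time point as a factor and Benjamini-Hochberg adjustment over 363 features, of which 119 (32.8%) were called lower and 104 (28.7%) higher, 61.4% in all. Without the 2 libraries rich in miR-184-3p the log2 changes were -0.83 (miR-998-5p), -0.89 (miR-998-3p), -0.17 (miR-11-3p) and -0.23 (miR-11-5p), and all 4 stayed called. Whole heads were extracted, so fewer cells that make a microRNA and less of it per cell cannot be told apart.

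**Figure D2:**
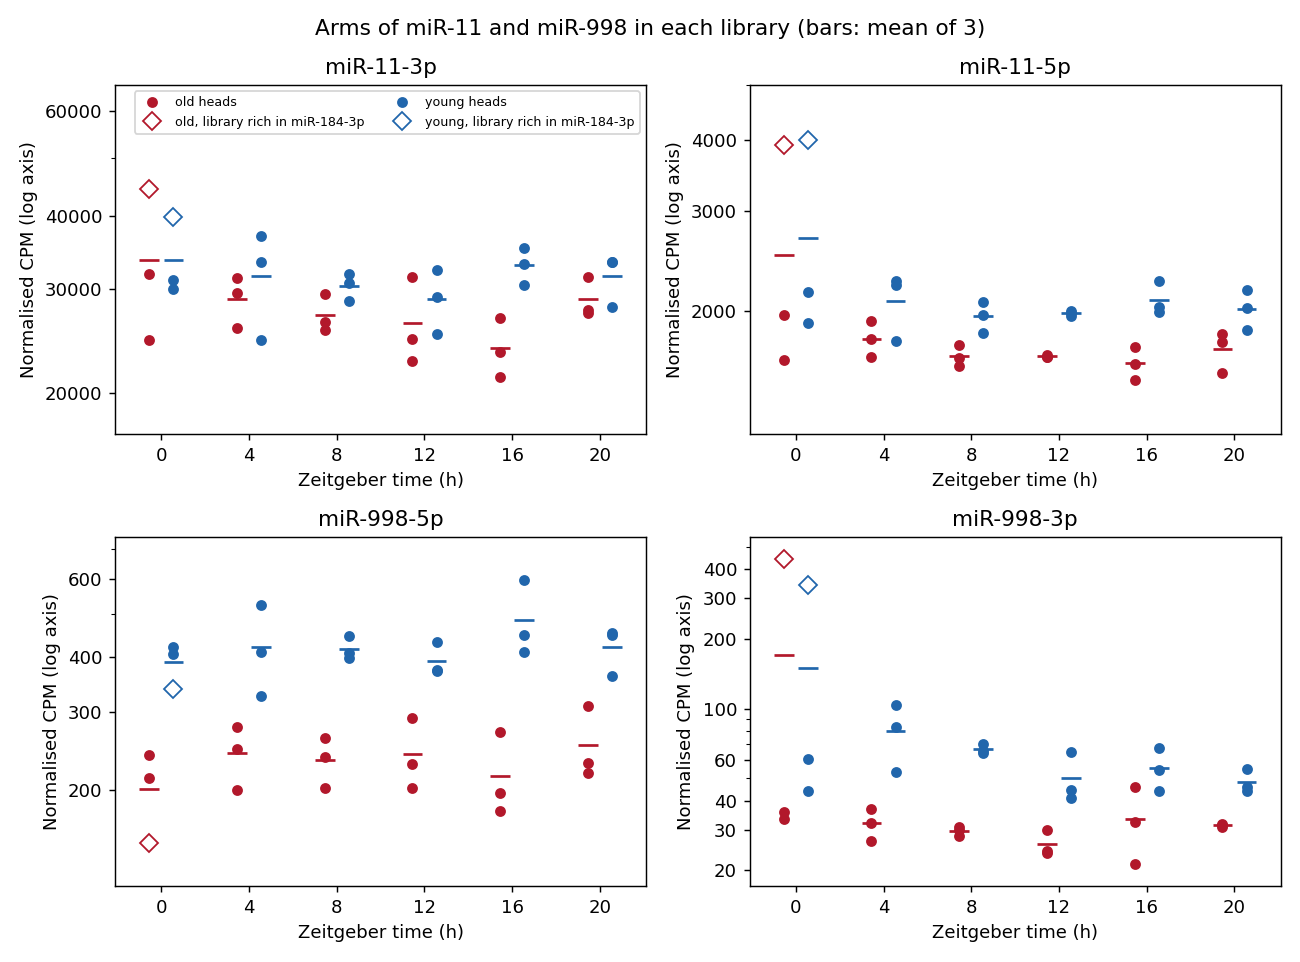
Normalised CPM of each arm (vertical axis, logarithmic) against zeitgeber time in hours, with 1 symbol per library, old heads in red left of young heads in blue, and a bar at the mean of 3 libraries. For miR-998-5p every old library lies below every young one, whereas the ages overlap for miR-11-3p; open diamonds mark the 2 libraries rich in miR-184-3p.

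miR-998-5p, the main arm of its hairpin by reads, showed the plainest difference. At ZT0 it had 240.4, 213 and 152 CPM in old heads, against 339, 407 and 422 CPM in young heads. At ZT4 it had 201, 278 and 248 CPM in old heads, against 525, 411 and 327 CPM in young heads. At ZT8 the values were 262, 203 and 238 CPM in old heads and 399, 447 and 408 CPM in young heads. The ages did not overlap at any of these hours, and the narrowest gap was at ZT4. At ZT12 old heads had 203, 291 and 229 CPM, against 374, 432 and 372 CPM in young heads. At ZT16 old heads had 197, 271 and 179.9 CPM, against 448, 598 and 410.1 CPM in young heads. At ZT20 old heads had 309.6, 219 and 230.5 CPM, against 454, 448 and 363 CPM in young heads. Thus no old value reached the lowest young value at the same hour at any of the 6 time points. The share of features that were lower in old heads without overlap was 17.4% at ZT0, 18.5% at ZT4, 24.8% at ZT8 and ZT12, 22.3% at ZT16 and 24.5% at ZT20. Even with all hours together, the highest old library (309.6 CPM) lay below the lowest young library (327 CPM), which held for 16 of 363 features (4.41%).

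The log2 change of miR-998-5p, old minus young, was -0.86 (SE 0.080, edgeR adjusted p = 3.04e-11). Hour by hour it ran from -0.70 at ZT12 (adjusted p = 0.0103) to -1.17 at ZT16 (adjusted p = 5.20e-05), and edgeR called it lower at 6 of 6 time points. Over all features, 14.3% were called lower at ZT0, 11.6% at ZT4, 14.6% at ZT8, 14.9% at ZT12, 17.1% at ZT16 and 14.3% at ZT20. With library totals in place of TMM scaling the arm was called at 2 of 6 time points, ZT0 and ZT16, where 6.61% and 6.89% of features were called lower with that scaling, against 4.41% to 6.34% at the other hours, and the log2 change over all hours was -0.67. On the deposited RPM scale, which uses library totals, the ages overlapped: old heads reached 324 RPM, and young ZT0 replicate 1, with 45.3% miR-184-3p, had 194 RPM. The cause of this low value was not tested.

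miR-998-3p, the arm for which targets such as Cbl are known, had far fewer reads. At ZT0 it had 35.8, 33.4 and 441 CPM in old heads, against 342, 44.2 and 60.6 CPM in young heads. The old value of 441 CPM and the young value of 342 CPM come from the libraries rich in miR-184-3p, and without them the ages do not overlap at this hour, as for 32.0% of features. At ZT4 it had 37.0, 26.7 and 32.1 CPM in old heads, against 103, 83.5 and 53.2 CPM in young heads. At ZT8 old heads had 30.0, 28.1 and 30.9 CPM and young heads 65.3, 70.2 and 64.3 CPM. At ZT12 old heads had 30.0, 24.3 and 23.7 CPM and young heads 41.1, 44.4 and 64.7 CPM. Old values at these 3 hours all lay below the young ones. At ZT16 old heads had 45.9, 21.4 and 32.4 CPM, against 54.2, 43.9 and 67.7 CPM in young heads. At ZT20 old heads had 30.9, 31.4 and 31.6 CPM, against 45.7, 44.1 and 55.0 CPM in young heads. The highest old value at ZT16 passed the lowest young one, and at ZT20 there was again no overlap, which makes 4 of 6 time points without overlap when all libraries are used; at ZT4, ZT8, ZT12 and ZT20, 18.5% to 24.8% of features lay lower without overlap.

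Over all hours the log2 change of miR-998-3p was -0.77 (SE 0.26, edgeR adjusted p = 0.0105). No single time point was called with all libraries, where the log2 changes ran from -1.32 at ZT4 (adjusted p = 0.133) to 0.19 at ZT0 (adjusted p = 0.867). Without the 2 libraries rich in miR-184-3p, old heads averaged 30.9 ± 5.64 CPM and young heads 59.1 ± 16.4 CPM (SD, n = 17 each). The log2 change was then -0.89 and edgeR called the arm lower at 5 of 6 time points, all but ZT0 (-0.60, adjusted p = 0.115). Calls were more frequent over all features too in that fit at these 5 hours, with 15.7% of 369 features called lower at ZT4, 16.3% at ZT8, 16.8% at ZT12, 19.8% at ZT16 and 19.0% at ZT20, and 12.7% at ZT0. The value at ZT0 rested on single libraries. It was -2.10 (edgeR adjusted p = 0.00331) without old replicate 3 and 1.73 (adjusted p = 0.0383) without young replicate 1.

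miR-11-3p, the arm that carries the seed for the cell-death genes, was the most abundant member, with a lowest value of 21304.5, a median of 27089 and a highest value of 44355 CPM in old heads, against 24660, 31512 and 39749 CPM in young heads. The ages overlapped over nearly the whole range. Its log2 change was -0.17 (SE 0.069, edgeR adjusted p = 0.0301), and the call was lost when any 1 of 15 of the 36 libraries was left out, with adjusted p up to 0.0947. It was also lost under several other scalings, filters and tests. Relative to the median of all features the change was -0.16 with TMM scaling and -0.17 with library totals alone, where that median itself stood at 0.19. It was closer to 0 with limma on RPM (-0.087) and without the features listed under rr numbers (-0.077), and reached -0.26 without both the libraries rich in miR-184-3p and the 3 rich in ovary miRNAs.

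ZT16 was the single hour at which edgeR called miR-11-3p lower. It had 21304.5, 26784 and 23468 CPM in old heads, against 35255, 33097 and 30525 CPM in young heads. These groups did not overlap, as for 22.3% of features at ZT16, and the log2 change was -0.47 (SE 0.17, adjusted p = 0.0410). The call at ZT16 was lost with library totals (-0.26, adjusted p = 0.241), limma on RPM (-0.27, adjusted p = 0.215), a filter at 10 CPM (-0.31, adjusted p = 0.142) and no filter (-0.39, adjusted p = 0.144). It was also lost with RLE size factors (adjusted p = 0.0586), with DESeq2 (adjusted p = 0.0516), without the rr features (adjusted p = 0.0658), and in 12 of 36 fits that left out 1 library (adjusted p up to 0.152). At the other 5 hours the log2 change of miR-11-3p lay between -0.16 and -0.0017 and the groups overlapped.

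miR-11-5p, the minor arm of its hairpin, had a lowest value of 1514, a median of 1667 and a highest value of 3925 CPM in old heads, against 1771, 2013 and 4008 CPM in young heads. Both highest values were in the libraries rich in miR-184-3p; without these, old heads reached 1965 and young heads 2259 CPM. At ZT12 it had 1657, 1676 and 1658 CPM in old heads, against 1957, 2000.2 and 1984 CPM in young heads. Old and young values did not overlap at ZT8, ZT12, ZT16 and ZT20, hours at which 22.3% to 24.8% of features lay lower in old heads without overlap. The log2 change was -0.24 (SE 0.084, edgeR adjusted p = 0.0153), no hour was called with all libraries, and ZT16 and ZT20 were called without the 2 libraries, as 19.8% and 19.0% of features were called lower there. Leaving out young ZT0 replicate 1 alone ended the call (-0.16, adjusted p = 0.0758).

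Ratios within a library do not depend on the scaling between libraries, so they show directly how the 2 hairpins of the intron moved against each other. The summed counts of both miR-11 arms were 106 times those of both miR-998 arms in old heads and 68.1 times in young heads (geometric means, n = 18 each). The log2 ratio was 6.73 ± 0.161 in old and 6.09 ± 0.107 in young heads (SD, n = 18 each). Its lowest value in old heads, 6.35, lay above its highest value in young heads, 6.22. The difference of 0.64 was higher in old heads at 6 of 6 time points, without overlap at each of them, and a 2-sided permutation test with age labels permuted within time points gave adjusted p = 4.00e-05 over 4 ratios (raw p = 1e-05, the smallest that 100000 resamples can give). The old library rich in miR-184-3p gave the lowest old ratio, still above every young one, and the young library lay inside the young range. Without both the difference was 0.66. How often ratios of other features separate the ages without overlap was not computed.

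For the 3p arms alone, the log2 ratio of miR-11-3p to miR-998-3p was 9.62 ± 0.814 in old and 8.95 ± 0.623 in young heads (SD, n = 18 each). The difference of 0.66 had a permutation adjusted p of 0.0108. All old values lay above all young ones at 4 of 6 time points, and the share of other ratios that did so was not computed. Without the 2 libraries the difference was 0.70 (permutation adjusted p = 4.00e-05) and the ranges over all hours were 8.86 to 10.3 in old and 8.48 to 9.57 in young heads. Leaving out old ZT0 replicate 1 (0.57, permutation adjusted p = 0.0679) or old ZT0 replicate 2 (0.59, adjusted p = 0.0625) ended the call.

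**Figure D3:**
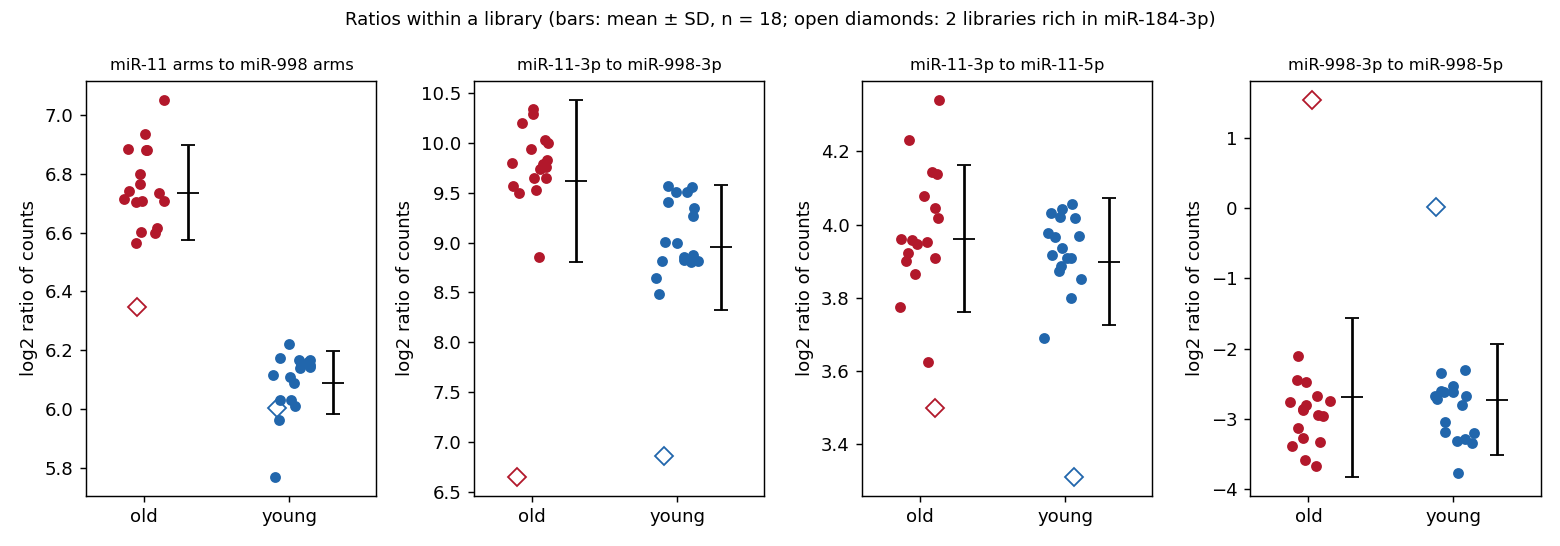
log2 ratios of counts within each library (vertical axes), old heads left of young heads in each panel, with 1 symbol per library and mean ± SD (n = 18) beside the points. In the first panel the old libraries span 6.35 to 7.05 and the young ones 5.77 to 6.22. Open diamonds mark the 2 libraries rich in miR-184-3p. Both have the lowest value of their age in the middle panels and the highest in the last, and the old diamond is also the lowest old value in the first.

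The balance of the arms within a hairpin differed less between the ages than between libraries. The log2 ratio of miR-11-3p to miR-11-5p was 3.96 ± 0.201 in old and 3.90 ± 0.174 in young heads (SD, n = 18 each), a difference of 0.063 that did not pass the permutation test (adjusted p = 0.402; 0.056 and adjusted p = 0.335 without the 2 libraries). For miR-998-3p to miR-998-5p it was -2.69 ± 1.13 in old and -2.72 ± 0.789 in young heads, a difference of 0.031 (permutation adjusted p = 0.908). Without the 2 libraries the values were -2.94 ± 0.415 in old and -2.88 ± 0.408 in young heads (SD, n = 17 each). Leaving out 1 library at a time moved the age difference of the miR-998 ratio between -0.20 and 0.20. The test does not exclude a small age difference of this ratio.

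Of the 2 libraries rich in miR-184-3p, the arm order of miR-998 was turned round in the old library, and its arms were near equal in the young library. In old ZT0 replicate 3 the 3p arm had 7145 counts and the 5p arm 2460.5, so the 3p arm held 74.4% of the hairpin (95% Clopper-Pearson interval 73.5 to 75.3%). In young ZT0 replicate 1 the arms had 3873 and 3840 counts and the 3p arm held 50.2% (49.1 to 51.3%). These intervals cover counting error only. In the remaining libraries the 3p arm held 7.31% to 18.9% of the hairpin in old and 6.84% to 16.9% in young heads, so the 2 libraries lie far outside both ranges. The 3p arm of miR-11 held 91.9% and 90.8% in the same 2 libraries, just under the lowest share in the others (92.5% in old and 92.8% in young heads).

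Other hairpins shifted there too. Of 43 hairpins with a mean of at least 10 CPM for both arms, the log2 ratio of 3p to 5p reads in old ZT0 replicate 3 moved by a median of 0.74 in either direction from the median of the other old libraries. miR-998 moved most, by 4.40, followed by miR-10 (-3.97), miR-263a (-3.57) and miR-278 (-3.07). In young ZT0 replicate 1 the median shift was 0.79, and miR-998 moved by 2.73, the fourth largest after miR-263a (-3.60), miR-10 (-3.23) and miR-278 (-2.92). miR-11 moved by -0.46 and -0.63 and stood at rank 30 and 29 of 43. Outside these 2 libraries no relation of miR-998-3p with miR-184-3p passed the test: Pearson's r was 0.072 in old heads (Spearman's rho -0.032, adjusted permutation p = 0.782) and 0.40 in young heads (rho 0.14, adjusted p = 0.180; n = 17 each, adjusted over 8 relations chosen after seeing the data). Without the 2 libraries farthest from the median of miR-998-3p, r was -0.058 in old and -0.24 in young heads. The adjusted permutation p-values of these relations are those of r, not of rho. Among the same 8 relations, miR-11-3p (r = 0.62, rho 0.67, adjusted permutation p = 0.0289) and miR-11-5p (r = 0.67, rho 0.60, adjusted permutation p = 0.0256) passed with miR-184-3p in young heads. Those of miR-998-5p, and of the miR-11 arms in old heads, did not pass (adjusted permutation p of 0.0646 or more).

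**Figure D4:**
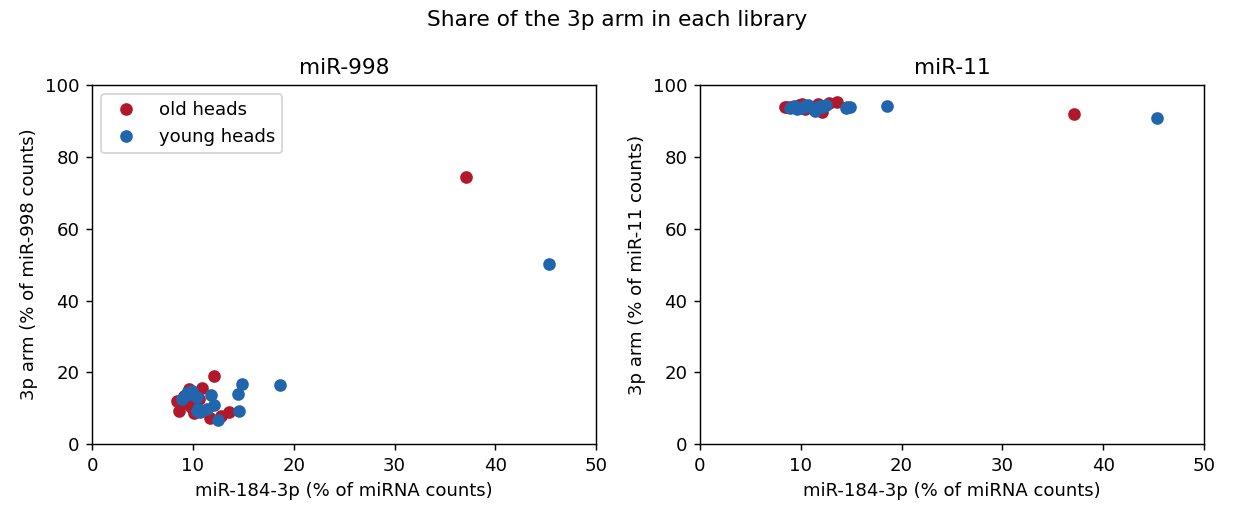
Share of the 3p arm in the counts of miR-998 (left) and miR-11 (right), in percent, against the share of miR-184-3p in all miRNA counts, in percent, with 1 point per library, old heads in red and young heads in blue. 2 libraries, with 37.1% (old) and 45.3% (young) miR-184-3p, hold 74.4% and 50.2% of miR-998 in the 3p arm, against at most 18.9% elsewhere.

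Over the 18 libraries of an age, 12 relations between the arms were computed on log2 CPM, which share the scaling factor of each library. Each was computed again without the library rich in miR-184-3p of its age (n = 17), with p adjusted over 12 relations in both cases. Each adjusted permutation p is that of Pearson's r, and the p of rho was not adjusted. miR-11-3p and miR-11-5p went together in young heads (Pearson's r = 0.73, Spearman's rho = 0.86, adjusted permutation p = 0.000240) and kept r = 0.73 without the 2 libraries farthest from the median of miR-11-3p and 0.80 (adjusted permutation p = 0.00126) without the library rich in miR-184-3p. In old heads they had r = 0.75 (rho 0.49, adjusted permutation p = 0.0107), which fell to 0.45 without the 2 farthest and to 0.36 without the rich library, where it no longer passed (adjusted permutation p = 0.233). The arms of miR-998 ran against each other in old heads, with r = -0.66 (rho -0.60, adjusted permutation p = 0.00652) and -0.44 without the 2 farthest libraries. Without the rich library r was -0.51, which did not pass (rho -0.53, adjusted permutation p = 0.0830). In young heads they had r = -0.28 (rho -0.16, adjusted permutation p = 0.295) and 0.068 without the rich library (adjusted permutation p = 0.795).

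Between the hairpins, the relation of the main arms, miR-11-3p and miR-998-5p, passed the test when the libraries rich in miR-184-3p were left out. With all libraries r was 0.030 in old (rho 0.44, adjusted permutation p = 0.905; 0.70 without the 2 farthest libraries) and 0.46 in young heads (rho 0.62, adjusted permutation p = 0.0693; 0.72 without them). Without the rich libraries it was 0.73 in old (rho 0.71, adjusted permutation p = 0.00436) and 0.79 in young heads (rho 0.88, adjusted permutation p = 0.00126). The remaining relations between the hairpins did not pass without these libraries. miR-11-5p and miR-998-3p had r = 0.95 in old (rho 0.43, adjusted permutation p = 0.00652; 0.42 without the 2 farthest libraries) and 0.87 in young heads (rho 0.46, adjusted permutation p = 0.0107; 0.39 without them), but 0.47 in old (adjusted permutation p = 0.117) and 0.38 in young heads (adjusted permutation p = 0.233) without the rich libraries. miR-11-3p and miR-998-3p had r = 0.63 in old (rho 0.051, adjusted permutation p = 0.0688; 0.039 without the 2 farthest libraries) and 0.57 in young heads (rho 0.31, adjusted permutation p = 0.0258; 0.33 without them). These became -0.26 in old (adjusted permutation p = 0.370) and 0.32 in young heads (adjusted permutation p = 0.278) without the rich libraries. miR-11-5p and miR-998-5p had r = -0.59 in old (rho -0.24, adjusted permutation p = 0.0239; -0.26 without the 2 farthest libraries) and -0.14 in young heads (rho 0.41, adjusted permutation p = 0.568; 0.38 without them). Without the rich libraries they had -0.20 in old (adjusted permutation p = 0.493) and 0.51 in young heads (adjusted permutation p = 0.0830), so neither passed. With all libraries, the unadjusted permutation p of rho was 0.0802 (old) and 0.0564 (young) for miR-11-5p with miR-998-3p. It was 0.217 for miR-11-3p with miR-998-3p in young heads and 0.327 for miR-11-5p with miR-998-5p in old heads.

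No arm was called rhythmic over the day. The fit of a 24 h cosine called 17 of 363 features (4.68%) in young heads and none of the 4 arms, whose fitted distance between peak and trough (log2) ran from 0.15 (miR-998-5p, edgeR adjusted p = 0.932) to 1.29 (miR-998-3p, adjusted p = 0.510). The value of miR-998-3p was 0.53 (adjusted p = 0.268) without the 2 libraries rich in miR-184-3p. In old heads edgeR called 0 of 363 features (0.0%), as did DESeq2, with 42 under 0.05 before adjustment. The largest fitted difference there was that of miR-998-3p, 2.19 with a peak at 23.8 h (edgeR adjusted p = 0.107). It was 0.27 (adjusted p = 0.970) without the 2 libraries rich in miR-184-3p, both of which were taken at ZT0. A dependence of the age difference on the time point was called for 0 of 363 features (0.0%) by edgeR, with 24 under 0.05 before adjustment and 9 called by DESeq2, and a difference in rhythm between the ages for 0 (0.0%), with 34 under 0.05 before adjustment and 4 called by DESeq2. The 4 arms had edgeR adjusted p of 0.9995 or more in both tests, and no arm was called by DESeq2.

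miR-11-3p belongs to the K box seed family, whose seed is shared by miR-2, miR-6, miR-13 and miR-308 and pairs with the K box motif of many fly 3′ UTRs. It supplied most of the reads of that family, 82.7% ± 3.07 in old and 83.3% ± 2.96 in young heads (SD, n = 18 each), and the ranges of the ages overlapped widely. Of the other 7 family arms, all tested, 3 rose and 3 fell with age, and their median log2 change was 0.065, against -0.0079 over all features tested. Of all features tested, 28.7% were called higher and 32.8% lower in old heads. miR-308-3p, from an intron of another gene, had 187 ± 31.6 CPM in old and 65.5 ± 13.8 CPM in young heads (log2 1.51, edgeR adjusted p = 3.31e-15). miR-6-3p, a microRNA of the early embryo, had 12.9 ± 2.90 CPM in old and 8.06 ± 3.78 CPM in young heads (log2 0.70, adjusted p = 0.000135). miR-2c-3p fell to 163 ± 17.6 CPM in old heads, against 216 ± 29.0 CPM in young heads (log2 -0.41, adjusted p = 1.98e-06). miR-2a-3p (log2 -0.24), miR-2b-3p (-0.17) and miR-13b-3p (0.12) passed as well, and miR-13a-3p did not (0.065, adjusted p = 0.387). miR-2a-3p, miR-2b-3p, miR-6-3p and miR-13b-3p are listed for several hairpin copies that share reads: their CPM are sums over the copies and their log2 changes are those of the first copy.

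miR-998-3p shares its seed with miR-285-3p and miR-995-3p, the fly relatives of mammalian miR-29. miR-995-3p, with 5181 ± 334 CPM in old and 4679 ± 378 CPM in young heads, rose slightly (log2 0.15, edgeR adjusted p = 0.00273). miR-285-3p had 122 ± 11.3 CPM in old and 185 ± 25.6 CPM in young heads and fell (log2 -0.60, adjusted p = 4.35e-10). miR-998-3p made up 0.586% ± 0.101 of the reads of these 3 arms in old and 1.21% ± 0.309 in young heads without the 2 libraries rich in miR-184-3p (SD, n = 17 each), and 0.922% ± 1.43 in old and 1.45% ± 1.08 in young heads with them (n = 18 each).

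**Figure D5:**
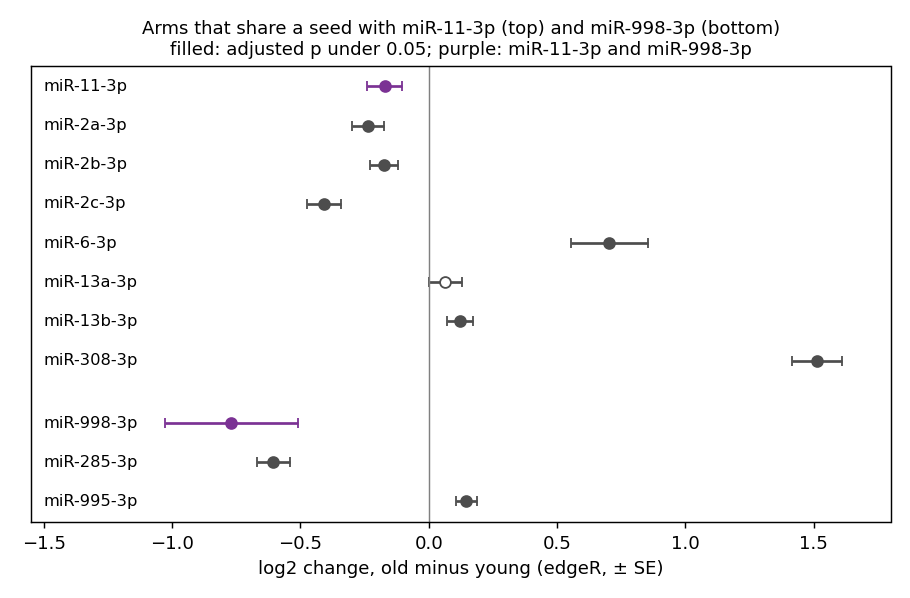
log2 change from edgeR, old minus young (horizontal axis), with standard errors, for miR-11-3p and 7 arms with the K box seed (top) and for miR-998-3p and 2 arms with its seed (bottom). Within both families some arms lie above 0 and others below; miR-308-3p is highest (1.51) and miR-998-3p lowest (-0.77).

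Among other microRNAs known to restrain cell death or promote growth, 9 of 10 listed arms passed the filter, 1 rose, 1 fell and the other 7 did not pass the test, with a median log2 change of 0.071, against -0.0079 over all features. Over all features 28.7% rose and 32.8% fell, 61.4% in all. bantam-3p, which represses hid and promotes growth, had 67162 ± 12147 CPM in old and 83739 ± 10519 CPM in young heads (log2 -0.32, edgeR adjusted p = 0.000373). miR-263a-3p, the minor arm of a microRNA that protects sense organs from apoptosis, rose (log2 0.52, adjusted p = 2.74e-05). miR-14-3p, a suppressor of cell death, had 52642 ± 11742 CPM in old and 58807 ± 10278 CPM in young heads (adjusted p = 0.151). miR-263b-3p did not pass the filter.

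The unequal age changes of the 2 hairpins were set beside those of other neighbouring hairpins. Of 18 pairs of hairpins on the same strand within 10000 bases, each represented by its more abundant arm with a mean of at least 10 CPM, the absolute difference between the log2 age changes of the partners had a median of 0.43. Hairpin copies that share an arm with another copy, such as those of miR-2a, miR-2b and miR-13b, were left out, since the reads of that arm cannot be assigned to 1 copy. For miR-11-3p and miR-998-5p it was 0.69, the fourth largest, after the pairs miR-286-3p and miR-5-5p (1.20), miR-1007-3p and miR-2535b-3p (0.83), and miR-279-3p and miR-996-3p (0.83). The hairpins of let-7, bantam and miR-263a were not among those placed on the genome here, so any pairs with them are missing. Of 104 tested arms whose hairpins lie in introns of protein-coding genes, 28 rose and 34 fell with age, with a median log2 change of -0.077, against 62 and 93 of the 267 tested arms that were placed at a single site (median -0.089).

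Across all 36 libraries, the arm most like miR-998-5p among 153 arms of other hairpins with a mean of at least 10 CPM was miR-970-3p (Pearson's r of log2 CPM 0.92), followed by miR-957-3p (0.92) and miR-993-3p (0.91); without the libraries rich in miR-184-3p they were miR-957-3p (0.94), miR-927-3p (0.94) and miR-4940-5p (0.93; n = 34). For miR-11-3p they were miR-4919-3p (0.82), miR-31b-5p (0.80) and miR-31a-5p (0.80). For miR-11-5p they were miR-998-3p (0.93), miR-184-3p (0.90) and miR-10-5p (0.87), and for miR-998-3p they were miR-11-5p (0.93), miR-278-5p (0.88) and miR-927-5p (0.87). The last 2 lists shared no arm with those made without the libraries rich in miR-184-3p. Without these, the arms most like miR-998-3p were miR-125-5p (0.90), miR-993-3p (0.86) and miR-34-3p (0.84), and those most like miR-11-5p were miR-957-3p (0.84), miR-4919-3p (0.83) and miR-4940-5p (0.83; n = 34). Among the arms most like miR-11-3p, miR-4919-3p (0.86) and miR-285-5p (0.75) were then followed by miR-998-5p (0.74). These values describe libraries that also differ in age and share their scaling.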

How the data were processed

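Small RNA of 36 samples of whole heads was sequenced. Reads were aligned with Bowtie to BDGP6 (dm6), per the submitters' processing notes; versions and counting rules are not given in the sources used here. For each mature arm the authors deposited an expected count, which is fractional where a read fits several places, and an RPM value, scaled to the miRNA total of its library. The piRNA tables, with deposited expected counts and RPM, served only for the total of reads behind their RPM, used in an alternative. This total was 66.8 to 91.6 M in old and 36.5 to 67.0 M in young libraries. The miRNA counts were 16.2 to 23.6 M in old and 19.8 to 30.4 M in young libraries.

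Rounded counts were fitted in edgeR 4.0.16 (R 4.3.3), with filterByExpr over the 12 groups, TMM factors, quasi-likelihood fits with age and time point as factors, or with a 24 h cosine and sine per age, and Benjamini-Hochberg adjustment over 363 features at a threshold of 0.05. Alternatives used DESeq2 1.42.0 and limma 3.58.1, with 1 added to RPM before the log2. Ratios used counts with no pseudocount; permutation tests used scipy 1.17.1 and numpy 2.4.6. Positions come from the Ensembl annotation on BDGP6. Named were the members, their seed families, up to 4 arms of the cell death list, and the 3 arms most like each member. The members and lists were chosen with earlier results of these data known. The fits were tested on simulated data.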

Additional observations from a re-analysis of the deposited data

How the results depend on the processing

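miR-998-5p stayed called lower in old heads under every alternative run, with log2 changes of -0.67 to -1.48. The ratio of miR-11 arms to miR-998 arms stayed at 0.64 to 0.66 and called, except as means per series (the 6 libraries of an age and replicate number). There 3 against 3 cannot go below p = 0.1, and this ratio (0.64) had an exact permutation p = 0.1. The ratio of the 3p arms (0.66) had an exact permutation p = 0.2, above that limit, and the adjusted p was 0.400 for both. miR-998-3p lost its call only with counts summed per series (-0.55, adjusted p = 0.319). miR-11-3p lost it with RLE factors (-0.15), no filter (-0.11), a filter at 10 CPM (-0.081), DESeq2 (-0.15), limma-voom with a correlation within series (-0.18), without the 178 features listed under rr numbers, which the files do not explain (-0.090) and per series (-0.21). miR-11-5p lost it with library totals (-0.038), no filter (-0.17), the 10 CPM filter (-0.15), limma on RPM (-0.042), limma-voom (-0.24), without the rr features (-0.15) and per series (-0.26). miR-11-3p turned positive with library totals (0.022) and limma on RPM (0.021); these move the median of all features to 0.19 and 0.11. The total behind the piRNA RPM moves it to -0.62, and the arms to -0.79 (miR-11-3p), -0.85 (miR-11-5p), -1.39 (miR-998-3p) and -1.48 (miR-998-5p). The cause of these changes was not tested.

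At single time points, uncalled values changed sign. For miR-11-3p these were 0.21 at ZT0, 0.070 at ZT4, 0.046 at ZT8, 0.056 at ZT12 and 0.0085 at ZT20 with library totals, and 0.22, 0.075, 0.045, 0.049 and 0.010 with limma on RPM, and at ZT0 0.065 with no filter, 0.0098 with the replicate block, 0.11 without the rr features and 0.030 without the 3 ovary-rich libraries. For miR-11-5p at ZT0 they were 0.14 (library totals), 0.12 (limma), 0.013 (no rr features) and 0.044 (without 3 libraries). For miR-998-3p at ZT0 they were -0.36 (piRNA total), -0.012 (limma), -0.26 (limma-voom), -0.67 (without 5 libraries) and -0.60 (without 2). The miR-998 arm ratio turned to -0.049 without 5 libraries and -0.037 without 2.

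Leaving out 1 library at a time gave -0.20 to -0.13 for miR-11-3p (15 of 36 calls lost), -0.28 to -0.16 for miR-11-5p, -1.08 to -0.65 for miR-998-3p, -0.89 to -0.81 for miR-998-5p, 0.62 to 0.67 for the ratio of miR-11 to miR-998 arms, 0.53 to 0.83 for the 3p arms, and -0.20 to 0.20 for the miR-998 arm ratio. At ZT0 it gave -0.26 to 0.15 (miR-11-3p), -0.58 to 0.32 (miR-11-5p) and -2.10 to 1.73 (miR-998-3p). At ZT12 miR-998-5p missed the threshold without young replicate 2 (-0.62) or old replicate 1 (-0.58), and at ZT20 without old replicate 2 (-0.64) or 3 (-0.65). The libraries whose removal ended the call of miR-11-3p were old ZT0 replicate 2, ZT4 replicate 3, ZT12 replicate 1, ZT16 replicates 1 and 3 and ZT20 replicate 1, and young ZT0 replicate 1, ZT4 replicate 1, ZT8 replicates 2 and 3, ZT12 replicates 2 and 3, ZT16 replicates 1 and 2 and ZT20 replicate 2.

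Whether replicate numbers pair the samples was not tested. Of 18 old and young pairs with the same number and hour, 6 correlated above 0.1 (range -0.30 to 0.39). For 8 of the 18 old libraries, the young library of the same number was the one that correlated best at that hour. With a replicate block the age changes were -0.17, -0.23, -0.80 and -0.86 for miR-11-3p, miR-11-5p, miR-998-3p and miR-998-5p, and all stayed called; with labels permuted within replicate numbers the ratio of miR-11 to miR-998 arms kept adjusted p = 4.00e-05.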
